A study of Sus scrofa with 20 samples.

Results

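The 5 genes IRF8, SPI1, CD86, SCIMP and CD1.1, grouped here under the working name of myeloid and antigen-presenting cell regulators, were each represented by 1 probe set, 5 in all of the 24123 probe sets of the Affymetrix GeneChip Porcine Genome Array. They were found by their symbol in the platform annotation, which names 6765 genes on the probe sets tested. The genes were chosen by earlier results from the same 20 arrays. SCIMP and CD1.1 had been selected on their large difference between suckling piglets of 14 and 21 days of age, and the values that brought in the other genes are not recorded, although they show a difference in the same direction. The comparison of these 2 ages is therefore given as a description, with no p-value, and its counts of calls are read as support for nothing.

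Each array was hybridised with RNA from the scraped ileal mucosa of a crossbred piglet (Landrace × Large white × Duroc). Suckling piglets stayed with their own sow, were kept from the sow's diet, and were sampled at 14 (S14D, n = 3), 21 (S21D, n = 4), 28 (S28D, n = 4) and 35 (S35D, n = 3) days of age. Piglets weaned at 21 days of age onto a commercial diet for weanlings were sampled at 28 (21W28D, n = 3) and 35 (21W35D, n = 3) days of age. Scraped mucosa holds epithelium, lamina propria and lymphoid follicles together, so that fewer cells of a type and less RNA per cell cannot be told apart. The piglets came from the litters of a few sows, so that arrays share litters, and no source used here says which.

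SPI1 encodes PU.1, an ETS family transcription factor needed for the formation of myeloid cells and B cells. IRF8 is an interferon regulatory factor that can pair with PU.1 on DNA and is needed, in mouse and human, for monocytes and for some dendritic cells, and it is also active in follicular B cells. CD86 is a costimulatory ligand on dendritic cells, macrophages and activated B cells, which binds CD28 and CTLA4 on T cells. SCIMP is a transmembrane adaptor of antigen-presenting cells, B cells included, that gathers signalling proteins near MHC class II molecules. CD1.1, which the gene table lists with the older symbol CD1A, is a swine member of the CD1 family, MHC-like molecules that present lipids to T cells. In the ileum of young pigs, such cells lie in the lamina propria and in the large continuous Peyer's patch.

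All values are gcRMA values in log2 units, in which 1 unit is a 2-fold difference. The lowest value in the table was 2.08, and 41.5% of values lay within 1 unit of this floor, where differences are compressed. EPCAM, an adhesion protein of epithelium, lay between 14.44 and 15.21 in all 20 arrays. Over 23999 probe sets, each of the 3 arrays labelled S35D was nearer by Pearson's r to the 21W35D mean than to the S28D mean, and of 3 arrays with the label 21W28D, 2 were nearer to S28D than to 21W35D. Each of these pairs shares its age, so that these values do not bear on whether the labels S35D and 21W28D were exchanged. That was not settled here. The deposited labels were kept, and results were also computed with both exchanged. Over all tested probe sets, 21W35D replicate 2 had r of 0.970 with the other arrays of its group and 0.984 with the S35D mean. For S14D replicate 1, r was 0.986 with its own group and 0.988 with S21D. Several other arrays were also nearest to a group not their own.

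IRF8 was well above the floor in every array. Its values were 11.64, 11.35, 11.79 and 11.43 in S21D piglets, against 10.28, 9.10 and 7.74 in S14D piglets. The S14D piglets were spread over a 5.84-fold range, the S21D piglets over a 1.35-fold range, and the groups did not overlap. The mean was 11.55 ± 0.20 in S21D and 9.04 ± 1.27 in S14D piglets (SD, n = 4 and 3), a difference of 2.51 or 5.70-fold. In S28D piglets IRF8 was at 11.19, 11.54, 12.09 and 11.84, close to the S21D level. The arrays labelled S35D gave 9.94, 10.76 and 10.89, all under the lowest S28D piglet. Those labelled 21W28D gave 11.02, 11.58 and 12.04 and overlapped S28D. Values of 11.61, 9.71 and 11.53 were found in 21W35D piglets, of which replicate 2 was the lowest of all arrays other than those of S14D.

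SPI1 was also lowest in S14D piglets. It had 7.64, 7.28, 7.97 and 8.01 in S21D piglets, against 7.17, 5.23 and 4.44 in S14D piglets. The groups did not overlap, but S14D replicate 1 was only just under the lowest S21D piglet. The mean was 7.73 ± 0.34 in S21D and 5.61 ± 1.41 in S14D piglets, a difference of 2.12 or 4.33-fold. S28D piglets were at 7.35, 8.01, 7.97 and 8.40. The arrays labelled S35D were at 6.48, 7.18 and 7.17, again under all S28D piglets. SPI1 was at 7.11, 8.12 and 7.83 in the arrays labelled 21W28D and at 7.57, 5.50 and 7.36 in 21W35D piglets, where replicate 2 was once more low.

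SCIMP had the second largest difference between S21D and S14D piglets of the 5 genes and came closest to the floor. It was at 6.90, 6.62, 7.62 and 7.34 in S21D piglets, against 4.63, 3.77 and 2.61 in S14D piglets, with no overlap. The mean was 7.12 ± 0.45 in S21D and 3.67 ± 1.02 in S14D piglets, a difference of 3.45 or 10.9-fold. S14D replicate 3 lay within 1 unit of the floor. S28D piglets were at 6.16, 7.29, 7.23 and 7.38, and the arrays labelled S35D at 2.56, 3.45 and 5.01. In the arrays labelled 21W28D SCIMP was at 5.88, 7.26 and 7.14. Among 21W35D piglets it was at 7.57 and 7.10 in replicates 1 and 3, at the level of S21D and S28D piglets, and at 2.13 in replicate 2, which was the lowest value of the gene and next to the floor.

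CD1.1 had the widest range of the 5 genes, 104-fold as measured across the 20 arrays. S14D replicate 3, replicate 1 of the arrays labelled S35D and 21W35D replicate 2 lay within 1 unit of the floor, where differences are compressed. It was at 8.95, 8.60, 9.12 and 9.13 in S21D piglets, against 6.65, 5.01 and 3.06 in S14D piglets. The mean was 8.95 in S21D and 4.90 in S14D piglets, a difference of 4.04 or 16.5-fold, with no overlap. S28D piglets were at 8.47, 9.45, 9.03 and 9.30. The arrays labelled S35D, at 3.01, 4.89 and 6.85, were all lower. CD1.1 was at 6.09, 9.25 and 9.16 in the arrays labelled 21W28D, where replicate 1 stood below every S21D and S28D piglet. It was at 7.49, 2.76 and 7.48 in 21W35D piglets, all under the lowest S21D value.

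CD86 shared the low values of S14D piglets but not those of later arrays. It was at 7.93, 8.05, 8.70 and 8.08 in S21D piglets, against 7.04, 5.89 and 5.33 in S14D piglets. The mean was 8.19 ± 0.34 in S21D and 6.09 ± 0.87 in S14D piglets, a difference of 2.10 or 4.29-fold, and the groups did not overlap. S28D piglets lay close together, at 8.70, 8.46, 8.54 and 8.59. The arrays labelled S35D had 9.24, 8.26 and 8.68, so that the array lowest in IRF8, SPI1, SCIMP and CD1.1 within this group, replicate 1, was the highest in CD86. Values were 7.52, 8.40 and 8.68 in the arrays labelled 21W28D and 8.56, 8.78 and 9.06 in 21W35D piglets, whose replicate 2 was not low. The highest CD86 mean, 8.80 ± 0.25 in 21W35D piglets, lay 0.07 above that of the arrays labelled S35D, which is less than the spread within either group.

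**Figure D1:**
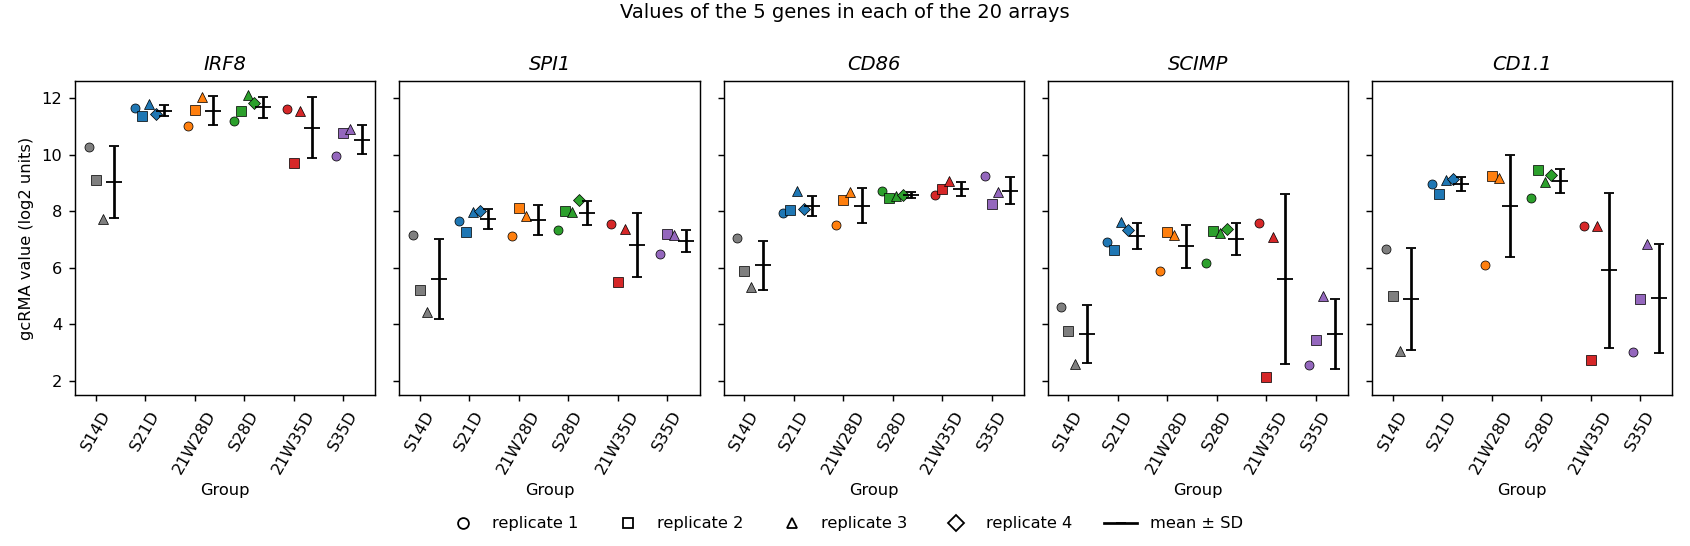
gcRMA values in log2 units (y axis) of IRF8, SPI1, CD86, SCIMP and CD1.1 in each of the 20 arrays, by group (x axis), with symbols for replicates and a bar for the mean ± SD of each group. The S14D arrays are low in all panels, whereas replicate 2 of 21W35D is low in IRF8 (9.71), SPI1 (5.50), SCIMP (2.13) and CD1.1 (2.76) but not in CD86 (8.78).

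Between S21D and S14D piglets, all 5 genes were higher in S21D and met the rule used for all probe sets, an adjusted p under 0.05 from limma with at least a 2-fold difference, which 7.84% of the 23999 tested probe sets met. Groups did not overlap in all 5 genes, and in 27.9% of all probe sets. SCIMP and CD1.1 were selected on this difference and the other genes may have been, so that nothing is read from these counts.

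Between S28D and S21D piglets, differences in the 5 genes were small beside the spread of the arrays. Differences of S28D minus S21D means were between -0.10 for SCIMP and 0.38 for CD86, and the groups overlapped for every gene. None of the 5 genes met the rule, against 0.00417% of all probe sets, and none had an unadjusted p under 0.05 from limma. The 95% confidence intervals rest on 1 estimate of the spread of each gene, taken over all 6 groups. They were -0.96 to 1.18 for IRF8 and -0.94 to 1.35 for SPI1, but -2.14 to 1.93 for SCIMP and -2.28 to 2.50 for CD1.1. A level 4-fold lower in S28D lay within the intervals of the last 2 genes, but these carry the spread of other groups. The SD of CD1.1 was 0.25 in S21D and 0.43 in S28D, against 2.73 in 21W35D. For SCIMP it was 0.45, 0.57 and 3.01 in the same groups.

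Between the arrays labelled S35D and S28D piglets, CD1.1 was at 4.92 ± 1.92 against 9.06 ± 0.43 (SD, n = 3 and 4), a difference of -4.14 (standard error 1.21, 95% confidence interval -6.73 to -1.56). Its adjusted p of 0.055 from limma missed the threshold. SCIMP was at 3.67 ± 1.24 against 7.02 ± 0.57, a difference of -3.34 (standard error 1.03, adjusted p = 0.065). IRF8 differed by -1.13 (adjusted p = 0.22) and SPI1 by -0.99 (adjusted p = 0.33). The groups did not overlap in these 4 genes, as in 21.9% of all probe sets. CD86 differed by 0.16, with an interval of -0.62 to 0.93, and its groups overlapped. None of the 5 genes met the rule, against 2.67% of all probe sets, while SCIMP and CD1.1 had an unadjusted p under 0.05. Over the alternatives with the labels as deposited, other than the unadjusted test of the methods, the adjusted p was 0.025 to 0.26 for CD1.1 and 0.030 to 0.27 for SCIMP. Both genes passed, with adjusted p of 0.025 and 0.030, once dim probe sets were left out, and CD1.1 passed after median centring of the arrays (adjusted p = 0.044). Whether the change of CD86 differed from that of the other genes was not tested.

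The arrays labelled 21W28D, by that label from piglets sampled 1 week after weaning, overlapped S21D and S28D piglets in all 5 genes. Compared with S28D piglets, of the same age by label, differences were between -0.89 for CD1.1 (means of 8.17 against 9.06) and -0.12 for IRF8. Compared with S21D piglets, at weaning, differences were between -0.78 for CD1.1 and 0.01 for CD86. No gene of the 5 and 0% of all probe sets met the rule in the first comparison, and likewise no gene and 0% in the second, with none of the 5 genes at an unadjusted p under 0.05 from limma in either. Without 21W28D replicate 1, CD1.1 differed by 0.15 from S28D and by 0.26 from S21D, so that this array set the direction of both values. The interval for CD1.1 against S28D, -3.48 to 1.69, held differences over 8-fold, and that for CD86, -1.15 to 0.41, excluded them. If both labels were exchanged, the first comparison takes the values given above for S35D and S28D, with CD1.1 at -4.14 and SCIMP at -3.34. The genes did not meet the rule in that case either.

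At 35 days of age, SCIMP was at 5.60 ± 3.01 in 21W35D piglets and at 3.67 ± 1.24 in the arrays labelled S35D (SD, n = 3 each), a difference of 1.93 (95% confidence interval -0.42 to 4.28, adjusted p = 0.85 from limma). Without 21W35D replicate 2 the difference was 3.67 (adjusted p = 0.057), so that this array set the size of the value. CD1.1 was at 5.91 ± 2.73 in 21W35D piglets and 4.92 ± 1.92 in the arrays labelled S35D, a difference of 0.99, and of 2.57 without the same array, but of 0.04 without replicate 1 of the arrays labelled S35D. IRF8, SPI1 and CD86 differed by 0.42, -0.13 and 0.07. Without 21W35D replicate 2, IRF8 differed by 1.04 and SPI1 by 0.52. The groups overlapped in all 5 genes, of which none met the rule, against 0.0208% of all probe sets, and none had an unadjusted p under 0.05.

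Between the arrays labelled as the second and the first week after weaning (21W35D minus 21W28D), CD1.1 differed by -2.26 and SCIMP by -1.16. CD86 differed by 0.60 (95% confidence interval -0.23 to 1.43). Without 21W35D replicate 2, CD1.1 differed by -0.68 and SCIMP by 0.58. The rule was met by 0 of the 5 genes, none of which had an unadjusted p under 0.05, and by 0.0667% of all probe sets. Compared with S21D piglets, CD1.1 was at 5.91 ± 2.73 in 21W35D and 8.95 ± 0.25 in S21D piglets, a difference of -3.04 (standard error 1.21, adjusted p = 0.37). It was -1.46 without replicate 2. CD1.1 was the 1 gene of the 5 with an unadjusted p under 0.05 in this comparison and the 1 gene without overlap. No gene met the rule, against 0.225% of all probe sets, and CD86 differed by 0.61 (adjusted p = 0.53).

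**Figure D2:**
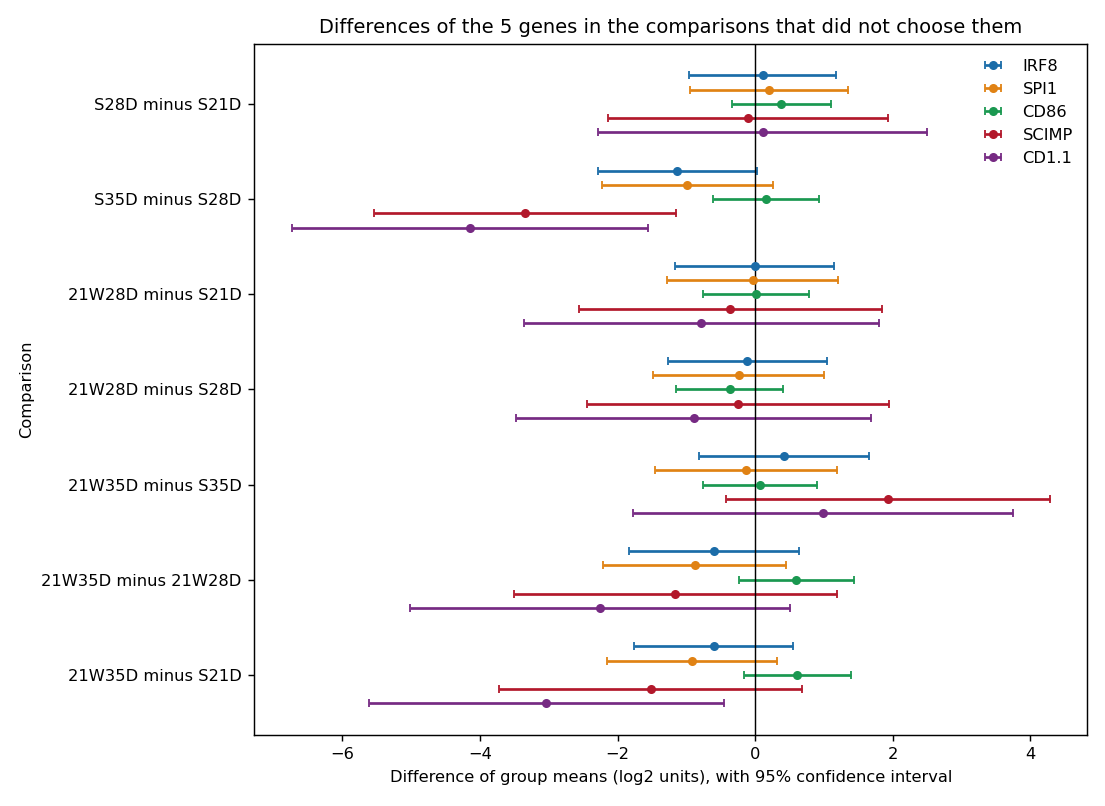
Differences of group means in log2 units (x axis), with 95% confidence intervals from limma, of the 5 genes in 7 comparisons (y axis). The intervals of SCIMP and CD1.1 lie below 0 for S35D minus S28D and that of CD1.1 for 21W35D minus S21D, and all others include 0, although no gene passed after adjustment over all probe sets.

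The effect of weaning did not differ detectably between the 2 ages. The interaction, the weaned minus suckling difference at 35 days less that at 28 days, was 2.19 for SCIMP (95% confidence interval -1.03 to 5.40), 1.89 for CD1.1, 0.54 for IRF8, 0.44 for CD86 and 0.11 for SPI1. Neither the 5 genes nor any other probe set (0%) met the rule, with none of the 5 at an unadjusted p under 0.05 from limma. The test named in the study's methods, without adjustment, also called 0 of the 5 genes in each comparison of 2 groups other than S21D with S14D and S35D with S28D. Over S21D, S28D, S35D, 21W28D and 21W35D together, limma's F test gave adjusted p of 0.15 for CD1.1 and 0.22 for SCIMP, and of 0.66 to 0.76 for IRF8, SPI1 and CD86. None of the 5 genes had an adjusted p under 0.05, against 2.22% of all probe sets. Without 21W35D replicate 2, SCIMP passed (adjusted p = 0.023) and CD1.1 was at 0.096.

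Across the 20 arrays, IRF8, SPI1, SCIMP and CD1.1 went together while CD86 went with them through the low S14D arrays. These correlations are descriptions over arrays that share groups. Pearson's r was 0.95 between IRF8 and SPI1, 0.95 between SCIMP and CD1.1, and 0.85 to 0.87 for the other pairs of these 4 genes. It was 0.71 between CD86 and IRF8, with a Spearman's rho of 0.24, and -0.23 when the S14D arrays were left out. For SCIMP and CD86 the values were 0.38, 0.12 and -0.26. Between SCIMP and CD1.1 they were 0.95, 0.87 and 0.94. The r with CD86 depended on which arrays were included. Without the 2 arrays farthest from the median of SCIMP, r between SCIMP and CD86 was 0.755. Between CD1.1 and CD86 it was 0.743 without the 2 farthest in CD1.1. Without the 2 farthest in CD86, its r was 0.06 with IRF8 and -0.11 with SPI1.

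The marker genes of the cell types that carry these genes did not move alike. The B cell list held 18 genes, of which 6 were measured and reached 4 log2 units (CD79B, BLNK, BTK, SPIB, CD40 and FCGR2B). Its score, the mean of these genes after centring each on all arrays, ran from 0.72 to 1.35 in S21D and from -3.92 to -0.20 in S14D piglets. It ran from -2.51 to -0.13 in the arrays labelled S35D, 0.56 to 1.34 in S28D piglets, 0.09 to 1.22 in the arrays labelled 21W28D and -3.65 to 0.82 in 21W35D piglets, where replicate 2 was the lowest. Over 20 arrays, r with this score was 0.92 for IRF8, 0.93 for SPI1, 0.93 for SCIMP and 0.94 for CD1.1, with rho of 0.90 to 0.94, and r of 0.87 to 0.94 without the 2 arrays farthest from the median score. For CD86 it was 0.43, with a rho of 0.12, 0.27 without the same 2 arrays, and -0.36 without S14D. For deviations from group means, r with the B cell score was 0.90 to 0.94 in the first 4 genes and 0.30 in CD86.

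Macrophage genes gave another order. Of 22 genes listed, 13 were measured, 7 reached 4 log2 units in some array, and 5 lay within 1 unit of the floor in all arrays, among them CD14, MARCO, SIGLEC1, FCGR1A and ITGAM. The score ran from -0.31 to 0.08 in S21D and from -0.63 to -0.48 in S14D piglets, and was highest in 21W35D piglets (-0.08 to 1.16) and the arrays labelled S35D (0.16 to 0.84). Its r was -0.07 with CD1.1, 0.08 with SCIMP, 0.16 with SPI1, 0.24 with IRF8 and 0.56 with CD86. For deviations from group means the order was another, with r of 0.58 for SCIMP, 0.51 for CD1.1, 0.37 for IRF8, 0.35 for SPI1 and 0.19 for CD86. The score also holds LGMN, which enterocytes of suckling animals express. LGMN was lower by 2.20 in S21D than in S14D piglets, where AIF1, C1QC and C1QA of the same score were higher. No r without LGMN was computed. Of 21 dendritic cell genes, 9 were measured, and 5 of these (XCR1, CCR7, CD209, CADM1 and TCF4) were within 1 unit of the floor in every array. The dendritic cell score, from 4 genes including CD83 and IRF7, had r of 0.78 to 0.87 with IRF8, SPI1, SCIMP and CD1.1 and of 0.56 with CD86. It ran from -0.02 to 0.33 in S21D and from -1.43 to 0.02 in S14D piglets. The 4 genes of this score did not move together. Between the arrays labelled S35D and S28D piglets, CD83, CD1E and FSCN1 differed by -3.07, -1.03 and -0.61, and IRF7 by 2.15. CD83 had the widest range of the 4, from 3.92 to 10.92. T cell genes, 11 of 18 measured, had a score of -0.65 to 0.15 in S21D and -1.95 to -1.05 in S14D piglets, and CD4 was at the floor throughout. Of these 4 lists the macrophage list, whose cells the working name of the group points to first, had the lowest r over the 20 arrays with IRF8, SPI1, SCIMP and CD1.1, and the same held for deviations from group means. The epithelial score, from 10 genes, ran the other way, with r of -0.84 for CD1.1, -0.78 for SCIMP, -0.71 for IRF8, -0.69 for SPI1 and -0.22 for CD86. It was -0.39 to 0.02 in S21D and 0.08 to 0.47 in S14D piglets. Scores of 0.30 to 0.69 in the arrays labelled S35D stood against -0.78 to 0.00288 in S28D piglets. Smooth muscle genes scored -0.50 to -0.20 in S21D and 0.60 to 0.85 in S14D piglets, with 2.79 in 1 array labelled S35D, and erythrocyte genes reached 3.54 in S14D replicate 1. The part of any of these cells in the differences was not tested.

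**Figure D3:**
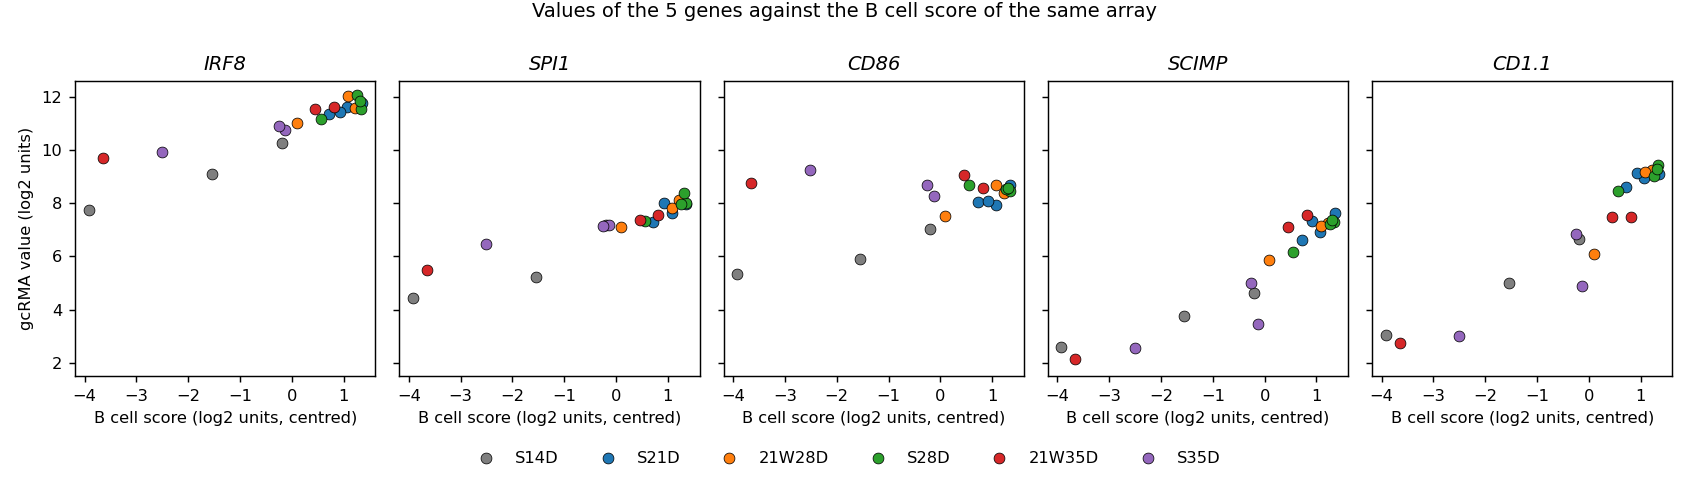
gcRMA values in log2 units (y axis) of the 5 genes against the B cell score of the same array (x axis, mean of 6 genes centred on all arrays, log2 units), with colours for groups and 1 point for each of 20 arrays. IRF8, SPI1, SCIMP and CD1.1 rise along the axis (r of 0.92 to 0.94), and CD86 is above 8 in the arrays with scores of -3.65 (21W35D) and -2.51 (S35D).

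Genes whose values were most like each of the 5 were sought among 5223 named genes that reached 4 log2 units in at least 3 arrays. IRF8 was closest to SLA-DMA, a chain of the MHC class II peptide-loading molecule (r = 0.979 over 20 arrays), followed by SLC2A3, LCP1, APOBEC3B and ARHGEF6. SPI1 was closest to TACC3 (r = 0.986), a protein of the mitotic spindle, followed by PIH1D1, CDC25B, FBL and DDX39A. SCIMP was closest to ASAP1 (r = 0.961), then MSN, STAT5A, TGFB1 and CXCL14. For CD1.1 they were VCAM1, an adhesion molecule of vessels and follicular stroma (r = 0.968), PPP3CB, UIMC1, LDHB and TNFAIP8. The number of genes with r over 0.9 was 284 for IRF8, 399 for SPI1, 148 for SCIMP and 270 for CD1.1, so that the first 5 do not stand apart. CD86 had only 10, led by LOC733579 (r = 0.939), SP140, PSMA3, PSMB8, a subunit of the immunoproteasome, and PHF11, whose r for deviations from group means was 0.62 to 0.85.

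Genes that act with the 5 were followed in lists of textbook knowledge, with 1 probe set for each gene, the brightest, and without the 5 genes themselves. The comparison of S21D with S14D piglets had selected SCIMP and CD1.1, and the lists were chosen with earlier results known. Their counts in it are a description only, beside 7.84% of all probe sets that met the rule in either direction. Between S21D and S14D piglets, 7 of 12 measured genes of MHC class II presentation rose and none fell. Their median was 1.47, against 0 over all probe sets, a set in which 41.5% of values lay within 1 unit of the floor. The smallest adjusted p were those of SLA-DRB1, SLA-DMA and CD74. SLA-DRB1, a beta chain, was higher by 1.58 (adjusted p = 0.013 from limma), SLA-DMA by 1.95 and CD74, the invariant chain, by 2.14. Averaged over all probe sets of the gene, SLA-DRB1 was higher by 0.53 and SLA-DMA by 0.43 (adjusted p = 0.19), and neither met the rule. Of 19 measured genes known to be regulated by PU.1 in mouse or human cells, 7 rose and none fell (median 1.38). Among them TYROBP, an adaptor of myeloid and natural killer cell receptors, was higher by 1.12 (adjusted p = 5.93e-04), FCER1G, the common gamma chain of Fc receptors, by 1.38, and BLNK, a B cell adaptor that also binds SCIMP, by 1.14. Of 13 other transcription factors of the network around PU.1 and IRF8, SPIB, the PU.1 relative of B cells, rose by 2.38 (adjusted p = 0.033), CEBPA, a factor of myeloid cells and of enterocytes, fell by 2.92 (adjusted p = 0.0053), and 11 did not pass.

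Of the 6 B cell genes, BLNK, SPIB and FCGR2B, an inhibitory Fc receptor, rose, the last by 4.42. Among 13 macrophage genes, AIF1, a calcium-binding protein of macrophages, rose by 1.22, as did the complement genes C1QC, by 1.69, and C1QA. LGMN, a lysosomal protease of macrophages and of the suckling enterocyte, fell by 2.20. CD53, a tetraspanin, rose by 2.14 and CD82, another, fell by 1.56 among 12 signalling partners of SCIMP, of which 3 rose and 1 fell. GM2A, a lipid transfer protein of lysosomes, rose by 1.94 and PSAP, the saposin precursor, fell by 1.31 among 5 genes of CD1 and lipid presentation. LY96, the partner of TLR4, was the 1 of 10 pattern recognition receptor genes that rose, by 2.65. PSMB8, of the immunoproteasome, and TAP1, of peptide loading, were the 2 of 12 interferon gamma response genes that rose, both by 1.46. The mean over probe sets fell short of the rule for TAP1, at 0.49, and for PSAP, at -0.66. No gene passed among 7 of the B7 and CD28 families (4 of them within 1 unit of the floor in all arrays), 9 of dendritic cells and 8 of neutrophils and granulocytes (6 of them within 1 unit of the floor in all arrays). CD8A, CD3E, LCK and CD247 rose among 11 T cell genes, and JCHAIN and CD38 among 5 plasma cell genes. Of 24 named genes of these lists, 11 and 12 no longer met the rule without S14D replicates 2 and 3, and 5, 2, 9 and 3 without S21D replicates 1 to 4. With only the groups compared, with the replicate block and with the adjusted test of the methods, 7 of the 24 were lost each time, and 4 were lost without the arrays labelled S35D and 21W28D.

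In the later comparisons few listed genes passed. Between the arrays labelled S35D and S28D piglets, SLA-DQB1 of MHC class II fell by 1.44 (adjusted p = 0.044 from limma). Medians were -1.20 for the 12 class II genes, -0.86 for the 19 genes regulated by PU.1 and -2.22 for the 6 B cell genes. The median over all probe sets, with their many values near the floor, was 0. In the same comparison LGMN rose by 1.76, IRF7, an interferon regulatory factor, by 2.15 and LGALS9 by 1.74. IFNGR1, the interferon gamma receptor, rose by 1.22. DDX58, an RNA sensor, rose by 2.51 and MTTP, a lipid transfer protein, by 1.69. The epithelial genes CDH17 and KRT18 also rose, the last by 1.36. Of these 9 genes, 8 no longer met the rule without replicate 1 of the arrays labelled S35D, 6 without S28D replicate 2, 5 without replicate 3 of the arrays labelled S35D, and all 9 with both labels exchanged. In 21W35D compared with S21D piglets, IRF7 rose by 2.32, FCGR3A, an activating Fc receptor of macrophages and natural killer cells, by 1.78, TAP1 by 1.52 and CD3G by 1.92, and CD3G was also higher by 1.21 than in the arrays labelled S35D (adjusted p = 0.036). The last call was lost in 9 of 17 alternatives, with adjusted p of up to 0.84. Of the 4 genes compared with S21D, 3 no longer met the rule without any 1 S21D array, and 3 (IRF7, TAP1 and FCGR3A) with the mean over probe sets. No listed gene passed in the comparisons of S28D with S21D, of 21W28D with S21D or S28D, or of 21W35D with 21W28D.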

How the data were processed

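Ileal mucosa RNA of 20 piglets was measured on 1 array each. The deposited log2 values per probe set are those the authors obtained by gcRMA. GCOS 1.2 and GCRMA are the tools in the submitters' processing notes. The base of 2 was taken from the range of the values, 2.08 to 16.41. No signal over background or scan date was used, and the number of arrays limits the precision. After 124 control probe sets were left out, limma 3.58.1 in R 4.3.3 was fitted to 23999 probe sets and all 6 groups, with Benjamini-Hochberg adjustment over all of them. Calls needed an adjusted p under 0.05 together with a difference of 2-fold or more, and for the F test on the adjusted p alone. Confidence intervals are from the same fit. Nothing in the labels says that replicates came from separate litters, so that p-values measure the spread between these arrays.

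Gene symbols came from the platform annotation, in which 10069 tested probe sets have 1 symbol, 198 have several and 13732 none. Of a listed gene the probe set with the highest mean was used, and up to 3 genes of each list with the smallest adjusted p among those called were named; C1QA and CD247, outside this rule, were named after their values were seen. Likeness took the 5 highest r per gene. The 5 genes, the lists and the alternatives were chosen with earlier results of these data known. The fit was tested on simulated data. Figures were drawn with matplotlib 3.10.9 in Python 3.11.15.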

Additional observations from a re-analysis of the deposited data

Results flagged for a closer look

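In groups of 4 arrays, the lowest or highest value was set against the others for each of the 5 genes. SCIMP in S28D piglets had a gap of 0.878 of the group's range between replicate 1 (6.16) and the next lowest array (7.23), above Dixon's critical value for 4 samples. This was 1 of 10 sets examined, and chance gives about 1 in 20. The B cell score of the same array, 0.56, was also the lowest of S28D.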

How the results depend on the processing

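Apart from S21D minus S14D and the F test, 735 recomputed differences in 40 pairs of a gene and a comparison kept their side of the rule in 729, and 37 pairs met it under no alternative. With 1 probe set per gene, the mean over probe sets left each difference unchanged, and the exchange of labels left the interaction unchanged. Part of this tally was therefore fixed beforehand, and many pairs lay far from the rule. For S21D minus S14D, 5 of 5 genes met it, beside 7.84% of all probe sets, but 3 (5.47%) with only the groups compared in the fit, 3 (5.26%) by the methods' t-test after Benjamini-Hochberg adjustment, 3 (5.73%) without the arrays labelled S35D and 21W28D, and 2 (5.2%) with the replicate block, and 1 to 5 (2.65% to 11.5%) when an array was left out (1 without S14D replicate 3, 2 without S14D replicate 2 or S21D replicates 1, 3 or 4, 3 without S21D replicate 2). For S35D minus S28D, 0 met it beside 2.67% of all probe sets, but 2 (7.9%) without dim probe sets, 1 (3.08%) after median centring and 3 (CD1.1, SCIMP and IRF8, 6.38%) by the methods' t-test without adjustment. The F test gave 0, and 0 to 1 with an array left out. Under an exchange of the S35D and 21W28D labels, LGALS9, IRF7 and DDX58 were at -0.44, -0.81 and -1.60 in S35D minus S28D piglets, and calls over all probe sets in this comparison were 0 in place of 640. That exchange gave 382 in place of 0 for 21W28D minus S21D and 640 in place of 0 for 21W28D minus S28D. Calls over all probe sets were 636 to 3575 for S21D minus S14D and 135 to 1005 for the F test. The cause of these shifts was not tested. Replicate numbers did not pair the arrays: of 46 pairs with the same number, deviations correlated above 0.1 in 18 and below -0.1 in 19, and 6 of 20 arrays correlated best with their own number. The t-test could not be fitted to the interaction or the F test. Values near the floor limit SCIMP and CD1.1.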
